A study of Mus musculus with 116 samples.

Results

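The nuclear-encoded genes of oxidative phosphorylation were followed through 7 RNA libraries of mouse oocytes and preimplantation embryos. Members were taken by symbol: every name that starts as a subunit of complex I (Nduf a, b, c, s or v with a number), complex II (Sdha to Sdhd), complex III (Uqcr and Cyc1), complex IV (Cox4 to Cox8) or complex V (Atp5) was kept. This gave 85 of the 24028 symbols shared by the 4 expression tables, 37 for complex I, 4 for complex II, 9 for complex III, 18 for complex IV and 17 for complex V. The rule counts names, and 2 of the 85, Atp5s and Atp5sl, are not known as subunits of the enzyme they are named after. Ndufa4 carries a complex I name but is known as a subunit of complex IV.

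All animals were wild type, and embryos came from C57BL/6N females of 8 weeks crossed with PWK males. The 5 total RNA libraries were each made from about 100 oocytes or embryos, with ribosomal RNA removed: MII oocytes at 13 h after hCG (the hormone injection that triggers ovulation), PN5 zygotes (the late pronuclear stage) at 30 h, early 2-cell embryos at 36 h, and late 2-cell embryos as a control and an mTBE group. For the late 2-cell groups, zygotes taken at 23 h spent 14 h in KSOM medium with 0.1% DMSO (control) or with 60 uM DRB, which blocks elongation by RNA polymerase II, and were then cultured for 12 h after release. The label mTBE is not expanded, and the column of this library names DRB. The other 2 libraries were replicates of the blastocyst inner cell mass (ICM) at 98 h, made by Smart-seq2 from polyadenylated RNA. Whether they came from separate collections of embryos is not given in the sources used here.

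Oxidative phosphorylation takes place in the inner mitochondrial membrane. Complex I oxidises NADH and complex II oxidises succinate, both pass electrons to ubiquinone, complex III passes them on to cytochrome c, and complex IV reduces oxygen. Complexes I, III and IV pump protons, and complex V, the ATP synthase, lets them flow back to make ATP. Complexes I, III, IV and V each combine subunits encoded in the nucleus with subunits encoded in mitochondrial DNA, whereas complex II is encoded in the nucleus alone. The oocyte supplies the mitochondria of the embryo, and the cleaving embryo is known to rely on pyruvate before glucose use rises towards the blastocyst. The subunits encoded in mitochondrial DNA were not analysed here.

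Values are the authors' FPKM (fragments relative to transcript length and to the library's mapped fragments), so levels of different genes are compared per length. A first table holds PN5, control and mTBE (the 3-library table), MII and early 2-cell each have a table of their own (the single-library tables), and the ICM libraries share a table. These tables were normalized separately, so between them stage, table and, for the ICM, protocol cannot be told apart. Each total RNA group held 1 library, so differences between these groups have no replicate check and were not tested. The oocyte markers, 10 of 10 at 1 FPKM or more in each total RNA library, summed to 1741 FPKM in early 2-cell and to between 4086 and 5495 in the other total RNA libraries, and in the ICM libraries to 11.0 and 38.3. The 2-cell markers summed to 451 FPKM in the control library and to 207 in mTBE, against 3.16 in MII, 7.27 in PN5 and 65.9 in early 2-cell. ICM markers were at 1 FPKM or more for 10 of 10 genes in the ICM libraries and in both late 2-cell libraries, with sums of 648 and 531 FPKM in the ICM and of 288 and 316 in control and mTBE embryos. Against control embryos, 4 of these 10 were higher in the ICM and 1 lower, with a median difference of 0.04. Trophectoderm markers were at 1 FPKM or more for 10 of 10 genes in both ICM libraries and summed to 2407 and 2012 FPKM there (Krt18 at 1116 and 991) against 31.7 to 94.4 in total RNA. The libraries labelled ICM thus carry markers of the outer layer of the blastocyst at high levels, and their part in the ICM values below was not tested. Fewer cells of a type and less RNA per cell cannot be told apart in such bulk samples. Cumulus markers were at 1 FPKM or more for 2 to 7 of 12 genes and sperm markers for 0 to 3 of 8.

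Promoter sequences are shown first for Cox6b1 and Cox6b2, which changed places between libraries (values below), and for Cox6a1. The windows come from RefSeq on GRCm38.p6 and run from 250 bases before to 50 bases after the annotated start, 5′ to 3′ on the strand of the gene. Capitals mark the palindromic NRF1 motif (NRF1 regulates nuclear genes for mitochondria) and the letters CCGGAAG or its reverse complement CTTCCGG (a core of ETS factors such as GABP). Cox6b1 (chr7:30626065-30626364, minus strand) is the common isoform, Cox6b2 (chr7:4753045-4753344, minus strand) the isoform known from testis, and Cox6a1 (chr5:115348909-115349208, minus strand) the common isoform of the neighbouring subunit.
Cox6b1: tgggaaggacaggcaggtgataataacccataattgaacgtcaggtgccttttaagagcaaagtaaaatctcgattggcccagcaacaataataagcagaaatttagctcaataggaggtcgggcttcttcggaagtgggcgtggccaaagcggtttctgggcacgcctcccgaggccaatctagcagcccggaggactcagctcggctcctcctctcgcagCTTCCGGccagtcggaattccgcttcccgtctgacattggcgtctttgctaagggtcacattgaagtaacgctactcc
Cox6b2: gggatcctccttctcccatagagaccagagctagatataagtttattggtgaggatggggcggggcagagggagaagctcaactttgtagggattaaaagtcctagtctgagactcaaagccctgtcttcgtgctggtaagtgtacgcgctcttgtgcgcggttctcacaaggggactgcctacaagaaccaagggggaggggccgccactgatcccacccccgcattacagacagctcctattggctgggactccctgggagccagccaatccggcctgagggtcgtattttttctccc
Cox6a1: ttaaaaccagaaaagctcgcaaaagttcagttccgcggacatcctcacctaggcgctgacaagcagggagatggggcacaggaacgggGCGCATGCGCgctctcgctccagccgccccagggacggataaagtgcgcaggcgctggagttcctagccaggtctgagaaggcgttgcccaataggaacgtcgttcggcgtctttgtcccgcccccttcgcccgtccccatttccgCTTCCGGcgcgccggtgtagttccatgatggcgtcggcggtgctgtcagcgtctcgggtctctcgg
The Cox6b1 window held an ETS match at position -28 from the start, and the Cox6a1 window an NRF1 match at -162 and an ETS match at -16. The Cox6b2 window held none of the motifs searched.

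Across the members, 69 of 85 were found in the promoter table, with 75 windows of 300 bases. The motifs were searched on both strands. The NRF1 letters stood in 5 of the 75 windows (6.67%), against 319 of 32851 windows of all genes (0.971%). The ETS letters stood in 16 (21.3%), against 2910 (8.86%). The letters AAGATGGCG, a motif of YY1, stood in 9 windows of 8 genes (12% of windows), against 461 (1.40%). All 3 motifs were thus found in a larger share of the members' windows than of all windows, and most members held none of any single motif. Counted by window, 7 of 9 YY1 matches (77.8%) lay after the annotated start, against 254 of 477 matches (53.2%) in all windows. These 7 lay on the strand of the gene and between positions 23 and 36. Strand and position were not counted over all windows. The 9 matches are 8 sites, since a pair of overlapping Atp5sl windows held the same site, at position 27 from one annotated start and -53 from the other. The sequence around 6 of these matches is printed to show this shared position, with the motif in capitals.
Atp5j2: ccaggacttcAAGATGGCGtcactcggtga
Ndufa9: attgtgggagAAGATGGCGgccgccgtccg
Ndufc1: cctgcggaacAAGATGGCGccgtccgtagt
Ndufs4: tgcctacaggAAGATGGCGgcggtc
Ndufs6: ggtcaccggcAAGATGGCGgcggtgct
Ndufs7: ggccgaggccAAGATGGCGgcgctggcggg
These genes encode a membrane subunit of complex V (Atp5j2), accessory subunits of complex I (Ndufa9, Ndufc1, Ndufs4, Ndufs6) and a core subunit of complex I (Ndufs7). They were picked for this match and not for their levels. A match describes letters only. Binding at these promoters was not analysed here, nor whether the ATG within the YY1 letters starts translation.

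The members were expressed at moderate levels in oocytes and cleavage embryos and at high levels in the ICM libraries. Of the 85 members, 78 were at 1 FPKM or more in MII, 72 in PN5, 70 in early 2-cell, 69 in control and 73 in mTBE embryos, and 81 and 80 in the ICM libraries. The median member was at 18.4 FPKM in MII, 8.90 in PN5, 4.09 in early 2-cell, 8.72 in control and 5.61 in mTBE embryos, and at 279.7 and 232 in the ICM libraries. Only 2 to 5 members reached 100 FPKM in a total RNA library, whereas 65 and 64 did in the ICM libraries. Together the members took 0.900% of the summed FPKM in MII, 0.596% in PN5, 0.481% in early 2-cell, 0.521% in control and 0.460% in mTBE embryos. In the ICM libraries they took 7.49% and 7.50%. The total RNA libraries hold more than polyadenylated RNA, so these shares have different bases.

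**Figure D1:**
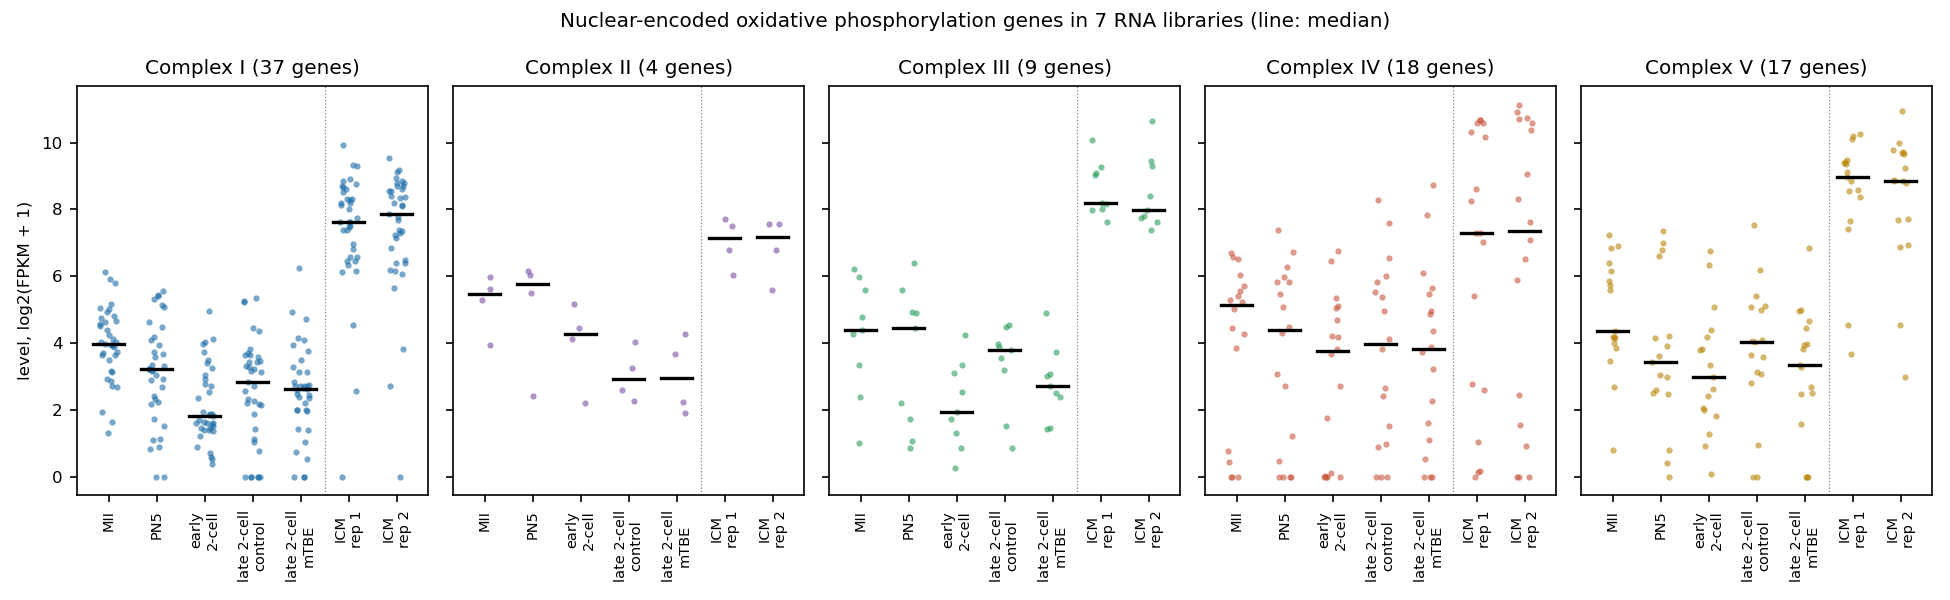
Level of each member as log2(FPKM + 1) (vertical axis) in the 7 RNA libraries (horizontal axis), 1 panel per complex, with 1 point per gene and a bar at the median. The dotted line separates the 5 total RNA libraries from the 2 ICM libraries. Medians of every complex lie higher in the ICM libraries, and in complex IV several isoforms stay near 0.

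The complexes differed in how their medians moved through the total RNA libraries, which come from separately normalized tables. As a reference, all genes at 1 FPKM or more in a library had medians of 11.0 FPKM in MII, 12.0 in PN5, 6.69 in early 2-cell, 8.92 in control and 6.90 in mTBE embryos. These medians cover different genes in each library, 12472 in control and 13022 in mTBE embryos. Gene by gene in log2(FPKM + 1), all genes had a median difference of -0.58 in early 2-cell embryos against MII. In mTBE against control embryos it was -0.05. The low values in early 2-cell embryos are thus partly shared by all genes, while all genes moved little from control to mTBE. Complex I had a median of 14.8 FPKM in MII, 8.25 in PN5, 2.50 in early 2-cell, 6.18 in control and 5.18 in mTBE embryos. Complex II, with the highest median of the 5 in MII, PN5 and early 2-cell embryos, stood at 43.2, 54.1 and 18.6 FPKM in these, at 6.76 in control and at 7.76 in mTBE embryos. Complex III stood at 20.0, 20.8, 2.80, 13.0 and 5.61 FPKM in the same order. Complex IV stood at 34.0, 20.0, 12.4, 14.8 and 13.1 FPKM, and complex V at 19.4, 9.82, 6.82, 15.4 and 9.15. In the ICM libraries complex V had the highest median, 503 and 464 FPKM, and complex II the lowest, 145 and 147. Among the 5 total RNA libraries MII held the highest value for 41 of 81 members (50.6%) that reached 1 FPKM in any of them, against 16.0% of all genes. PN5 held it for 19 (23.5%, all genes 21.3%), control for 11 (13.6%, all genes 30.4%), mTBE for 8 (9.88%, all genes 27.9%) and early 2-cell for 2 (2.47%, all genes 4.38%). Across the 85 genes, levels ranked alike in control and mTBE embryos (Spearman's rho 0.91) and in both ICM libraries (0.97), and less so in MII and the first ICM library (0.36). These coefficients describe genes within shared libraries and tables and carry no test.

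In complex I, the member with the highest mean level was Ndufa4, at 34.9 FPKM in MII, 46.5 in PN5, 15.2 in early 2-cell, 36.6 in late 2-cell control and 74.6 in late 2-cell mTBE, and at 971 and 748 in the ICM libraries. Ndufb11, an accessory subunit of the membrane arm, was at 68.7 FPKM in MII, 32.7 in PN5, 14.7 in early 2-cell, 39.5 in late 2-cell control and 25.3 in late 2-cell mTBE, and at 166 and 232 in the ICM libraries. Ndufb6, also of the membrane arm, was at 15.2 FPKM in MII, 17.1 in PN5, 9.58 in early 2-cell, 37.5 in late 2-cell control and 29.5 in late 2-cell mTBE, and at 431 and 412 in the ICM libraries. Ndufb6 was thus higher in both late 2-cell libraries than in the other total RNA libraries, and Ndufb11 was highest of these in MII. Ndufa10, an accessory subunit of the membrane arm, peaked among total RNA libraries in PN5, at 31.9 FPKM in MII, 42.5 in PN5, 16.4 in early 2-cell, 9.89 in late 2-cell control and 16.7 in late 2-cell mTBE, with 182 ± 21.4 FPKM (SD, n = 2) in the ICM. The 7 core subunits, which include the carriers of the flavin and of the iron-sulfur clusters and are named here as a group after their values were seen, had ICM means between 58.7 (Ndufs1) and 345 FPKM (Ndufs7).

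Complex II has 4 subunits. Sdha, the flavoprotein that oxidises succinate, was at 47.9 FPKM in MII, 69.6 in PN5, 34.9 in early 2-cell, 15.4 in late 2-cell control and 18.1 in late 2-cell mTBE, and at 65.3 and 47.3 in the ICM libraries. It was the only complex II gene whose ICM values did not exceed every total RNA library. Sdhb, the iron-sulfur subunit, was at 14.4 FPKM in MII, 4.29 in PN5, 3.65 in early 2-cell, 3.84 in late 2-cell control and 2.71 in late 2-cell mTBE, and at 182 and 189 in the ICM libraries. The membrane anchors Sdhc and Sdhd bind ubiquinone and heme. Sdhc was at 38.4 FPKM in MII, 44.0 in PN5, 16.3 in early 2-cell, 8.53 in late 2-cell control and 11.8 in late 2-cell mTBE, and at 109 and 109 in the ICM libraries. Sdhd was at 61.9 FPKM in MII, 64.3 in PN5, 20.9 in early 2-cell, 4.99 in late 2-cell control and 3.71 in late 2-cell mTBE, and at 209 and 186 in the ICM libraries. Sdhb alone of the 4 lay below 5 FPKM in PN5.

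In complex III, the small subunit Uqcrh, known as the hinge protein, was at 46.9 FPKM in MII, 47.2 in PN5, 9.16 in early 2-cell, 21.2 in late 2-cell control and 29.0 in late 2-cell mTBE, and at 619 and 625 in the ICM libraries. Uqcr10, another small subunit, was at 26.5 FPKM in MII, 28.7 in PN5, 2.80 in early 2-cell, 14.8 in late 2-cell control and 12.4 in late 2-cell mTBE, and at 1075 and 1612 in the ICM libraries. Both were lowest in early 2-cell embryos. Uqcrq was at 73.2 FPKM in MII, 29.7 in PN5, 4.74 in early 2-cell, 22.2 in late 2-cell control and 5.61 in late 2-cell mTBE, and at 521 and 702 in the ICM libraries. The core protein Uqcrc2 was at 61.6 FPKM in MII, 82.4 in PN5, 17.9 in early 2-cell, 10.7 in late 2-cell control and 7.08 in late 2-cell mTBE, and at 194 and 167 in the ICM libraries. Of these 4, Uqcrc2 had the highest PN5 value and Uqcrq the highest MII value. RefSeq names 2 pseudogenes of Uqcrh, and its values are uncertain to that extent.

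Complex IV held the highest single values of all members in 6 of the 7 libraries. Cox8a, the common isoform of its smallest subunit, was at 51.1 FPKM in MII, 105 in PN5, 86.4 in early 2-cell, 313 in late 2-cell control and 423 in late 2-cell mTBE, and at 1637 and 2249.8 in the ICM libraries. Cox5a, a matrix-side subunit, was at 102 FPKM in MII, 164 in PN5, 17.4 in early 2-cell, 93.0 in late 2-cell control and 67.9 in late 2-cell mTBE, and at 1287 and 1333 in the ICM libraries. Cox6a1 was at 91.2 FPKM in MII, 62.1 in PN5, 107 in early 2-cell, 55.4 in late 2-cell control and 28.4 in late 2-cell mTBE, and at 1142 and 1523 in the ICM libraries. Cox8a was thus higher in late 2-cell embryos than in earlier stages, whereas Cox5a was highest in PN5 among total RNA libraries and Cox6a1 in early 2-cell embryos. Cox6b1, on the side of cytochrome c, was at 46.2 FPKM in MII, 32.5 in PN5, 39.5 in early 2-cell, 62.9 in late 2-cell control and 43.3 in late 2-cell mTBE, and at 1632 and 1912 in the ICM libraries. It varied little among total RNA libraries, between 32.5 and 62.9 FPKM.

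In complex V, Atp5b, the catalytic beta subunit, was at 119.9 FPKM in MII, 161 in PN5, 106 in early 2-cell, 183 in late 2-cell control and 115 in late 2-cell mTBE, and at 1225 and 1018 in the ICM libraries. Atp5a1, the alpha subunit, was at 115 FPKM in MII, 127 in PN5, 79.2 in early 2-cell, 72.4 in late 2-cell control and 30.3 in late 2-cell mTBE, and at 549.9 and 464 in the ICM libraries. Atp5e, the epsilon subunit of the central stalk, was at 151 FPKM in MII, 97.0 in PN5, 32.7 in early 2-cell, 41.2 in late 2-cell control and 30.7 in late 2-cell mTBE, and at 503 and 799 in the ICM libraries. Atp5b stayed above 100 FPKM in every library, which no other member did. Atp5j2, subunit f of the membrane part, was at 82.7 FPKM in MII, 109 in PN5, 20.1 in early 2-cell, 33.4 in late 2-cell control and 24.1 in late 2-cell mTBE, and at 655 and 834 in the ICM libraries. At the other end of the range, Cox8b was listed at 0 in all 7 libraries and Cox4i2 did not reach 1 FPKM in any.

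A group of 5 members was near 0 throughout the 3-library table (below 1 FPKM in PN5, control and mTBE embryos) although a single-library table had them at 10 FPKM or more. Atp5g2, a gene for subunit c of the ATP synthase rotor, was at 46.7 FPKM in MII, 0 in PN5, 17.0 in early 2-cell, 0 in late 2-cell control and 0 in late 2-cell mTBE, and at 373 and 209.8 in the ICM libraries. Atp5l, subunit g, was at 57.4 FPKM in MII, 0.340 in PN5, 6.82 in early 2-cell, 0 in late 2-cell control and 0 in late 2-cell mTBE, and at 327 and 117 in the ICM libraries. Cox7c, a structural subunit of complex IV, was at 41.5 FPKM in MII, 0 in PN5, 0.0059 in early 2-cell, 0.988 in late 2-cell control and 0 in late 2-cell mTBE, and at 130.0 and 195 in the ICM libraries. These genes were thus high in MII and in the ICM libraries and near 0 in the table between them. Cox7c, and Ndufb4 below, were also under 1 FPKM in early 2-cell embryos, so their low levels were not confined to the 3-library table. Ndufb4, an accessory subunit of complex I, was at 31.5 FPKM in MII, 0 in PN5, 0.860 in early 2-cell, 0 in late 2-cell control and 0 in late 2-cell mTBE, and at 22.1 and 13.1 in the ICM libraries. Ndufs5, another, was at 23.7 FPKM in MII and 2.63 in early 2-cell, at no more than 0.001 in the 3-library table, and at 4.89 and 5.56 in the ICM libraries. The 5 make up 7.69% of the 65 members at 10 FPKM or more in a single-library table, against 102 of 5427 genes (1.88%). In the other direction the count was 0 of 50 members, against 406 of 7150 genes (5.68%). RefSeq names pseudogenes for Atp5l, Cox7c and Ndufs5 and for 9 other members, and how reads that map to several places were assigned is not given in the sources used here. Stage and table cannot be told apart for these 5 genes.

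**Figure D2:**
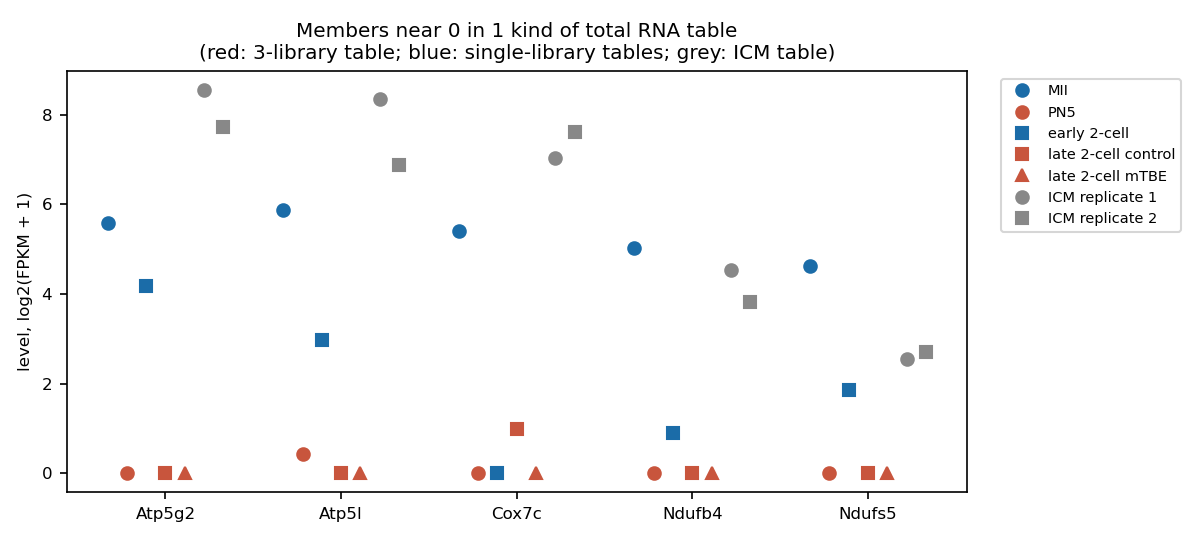
Level as log2(FPKM + 1) (vertical axis) of the 5 members that were near 0 in the 3-library table, 1 point per library. The red points (PN5, control and mTBE) lie below 1 on this scale, while MII (blue circles) lies above 4 for all 5 genes and the ICM libraries (grey) above 6 for Atp5g2, Atp5l and Cox7c.

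Against the ICM table, 4 more members met the same rule. The share of all genes that met it in this direction was not counted, so this number is not read as a trait of the members. Uqcrc1, a core protein of complex III, was at 0.996 FPKM in MII, 1.10 in PN5, 0.808 in early 2-cell, 8.16 in late 2-cell control and 4.26 in late 2-cell mTBE and at 253 ± 3.11 FPKM (SD, n = 2) in the ICM. It was below 1 FPKM in both single-library tables and not in late 2-cell embryos. Ndufa12, an accessory subunit of complex I, was at 5.57 FPKM in MII, below 1 in the 4 other total RNA libraries, and at 70.2 ± 0.858 FPKM (SD, n = 2) in the ICM. Cox7a1 did not exceed 1.12 FPKM in total RNA and was at 49.8 ± 12.1 FPKM (SD, n = 2) in the ICM. Atp5s did not exceed 0.946 FPKM in total RNA, so it was near 0 in both kinds of total RNA table. In the ICM it was at 9.37 ± 3.37 FPKM (SD, n = 2). It met the limit of 10 FPKM in the first ICM library only, at 11.7 FPKM against 6.98 in the second.

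The early 2-cell library was set against MII to follow the maternal RNA. Both libraries were single, from separately normalized tables of 1 format. Of 78 measured members 58 were at least 2-fold lower in early 2-cell embryos (a difference of 1 or more in log2(FPKM + 1), a scale that understates the fold of low genes), against 28.8% of all genes, and 0 were higher (all genes 3.98%). The members had a median difference of -1.76, where all genes had -0.58 and genes at the members' middle levels (5.56 to 25.5 FPKM) had -0.72. Genes at 5 FPKM or more in both libraries were shifted by -0.57 in log2 ratio. With that shift set to 0, 49 members were lower and 1 higher, against 15.0% and 8.56% of all genes. The members thus lay lower than the general shift on either scale.

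The difference ran through every complex. It had medians of -2.03 in complex I (29 of 37 lower), -1.36 in complex II (3 of 4), -2.55 in complex III (7 of 8), -1.0 in complex IV (7 of 13) and -1.78 in complex V (12 of 16). All 7 core subunits of complex I and all 5 small subunits of complex III were lower, with medians of -2.10 and -3.08. The 3 largest falls were those of Cox7c (41.5 to 0.0059 FPKM), Ndufb4 (31.5 to 0.860) and Uqcrq (73.2 to 4.74, a difference of -3.69). Cox7c and Ndufb4 are among the members set apart above. Complex IV was the most divided: Cox5a went from 102 to 17.4 FPKM, a difference of -2.49, and Cox4i1 from 93.4 to 13.1 (-2.75). In contrast Cox8a was at 51.1 and 86.4 FPKM (0.75), Cox6a1 at 91.2 and 107 (0.23) and Cox6b1 at 46.2 and 39.5 (-0.22), none past the 2-fold line. Beyond Cox8a, the largest differences upwards were 0.31 for Ndufa4l2, a low paralogue of Ndufa4, and 0.24 for Ndufa13, an accessory subunit of complex I. In complex V, Atp5b was at 119.9 and 106 FPKM (-0.18), while Atp5j2 went from 82.7 to 20.1 (-1.99). The summed oocyte markers stood at 5495 FPKM in MII and 1741 in early 2-cell embryos; their part in these values was not tested.

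PN5 zygotes and MII oocytes come from different kinds of table, and this comparison shares the MII library with the previous one. Of 80 measured members 27 were lower in PN5 (all genes 9.23%) and only Cox8a was higher (all genes 8.77%), at 51.1 FPKM in MII and 105 in PN5. The median was -0.50 for members and 0.24 for all genes. With the shift of genes at 5 FPKM or more, 0.33, set to 0, the members' median was -0.79, and 32 members were lower and 0 higher, against 12.2% and 3.22% of all genes. The largest falls were those of Atp5g2, Atp5l and Cox7c, all of them set apart above by table. Complex V had 7 of 16 lower and complex I 14 of 37. Complexes II, III and IV had medians near 0 (0.12, 0.01 and 0.0073), with 1 of 4, 3 of 9 and 2 of 14 genes lower. Sdha and Uqcrc2 were higher in PN5 by 0.53 and 0.41, within 2-fold. After Cox8a, the largest differences upwards were those of Cox6b2 (0.80) and of Cox8c (0.76), at 0.362 and 1.30 FPKM. Atp5g1 was at 52.3 FPKM in MII and 4.71 in PN5, a difference of -3.22, so that 2 of the 3 genes for subunit c were lower in PN5 while Atp5g3 was not (9.98 and 17.4 FPKM).

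Late 2-cell control embryos and PN5 zygotes share a table and span the activation of the embryonic genome. They also differ in the culture with DMSO that the control embryos had, so stage and culture cannot be told apart. Members moved in both directions: of 73 measured, 13 were higher in control embryos (all genes 30.5%) and 22 were lower (all genes 17%). The median was -0.40 for members, 0.28 for all genes and -0.04 for genes at the members' middle levels. Without the filter on low values the members' median was -0.16. Among genes at the members' middle levels 19.8% were higher and 22.1% lower.

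Complex II had the lowest median, -2.17, with 3 of 4 genes lower. Sdhd went from 64.3 to 4.99 FPKM (-3.45, the largest fall of any member), Sdhc from 44.0 to 8.53 (-2.24) and Sdha from 69.6 to 15.4 (-2.11). Sdhb was at 4.29 and 3.84. In complex I 13 of 34 were lower and 6 higher. Ndufc2, an accessory subunit, went from 21.4 to 1.16 FPKM (-3.37), Ndufa5 from 8.34 to a listed 0, and Ndufa10 from 42.5 to 9.89 (-2.0). Against these, Ndufa13 went from 1.19 to 11.5 FPKM (2.51) and Ndufb6 from 17.1 to 37.5 (1.09). Subunits of a single complex therefore differed in direction.

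Complex III had 2 genes higher and 2 lower among 8. Its core protein Uqcrc1 went from 1.10 to 8.16 FPKM (2.12), while the other core protein, Uqcrc2, went from 82.4 to 10.7 (-2.83). In complex IV, Cox6b2 (55.9 to 192 FPKM, 1.76), Cox8a (105 to 313, 1.57) and Cox8c (1.30 to 4.28, 1.20) were higher. Cox5b (5.54 to 1.84 FPKM) and the supercomplex factor Cox7a2l (76.4 to 16.4) were lower, both named after their values were seen. In complex V, Atp5g1 had the largest rise of any member, from 4.71 to 32.6 FPKM (2.56). Atp5b was at 161 and 183 FPKM, while Atp5e went from 97.0 to 41.2 (-1.22) and Atp5j2 from 109 to 33.4 (-1.68).

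Late 2-cell mTBE and control embryos were compared to ask how the members stood after transcription had been blocked and released. It is the only contrast of treatments, with 1 library each in the same table, and it shares the control library with the comparison above. Of 74 measured members 4 were higher in mTBE embryos (all genes 5.57%) and 8 were lower (all genes 9.99%), shares close to those of all genes. The median difference was -0.38 for members, -0.05 for all genes and -0.21 for genes at the members' middle levels (4.55 to 17.7 FPKM), and 48 of the 74 lay below 0 (64.9%), as did 64.1% of genes at those levels. The counts differed under other settings. With a pseudocount of 0.1 FPKM 13 members were lower and 7 higher, where all genes had 14.1% lower and 10.4% higher. With each library rescaled to the same sum 14 were lower and 5 higher, where all genes had 13.0% lower and 11.5% higher.

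Complex V held 5 of the 8 lower members, 35.7% of its 14 measured genes against 9.99% of all genes. Of these 14 genes 13 lay below 0 (92.9%), with a median of -0.60. They include Atp5sl (-0.29), which is not a subunit. Of all genes 53.4% lay below 0, and 64.1% of those at the members' middle levels. Atp5k, subunit e of the membrane part, stood at 16.1 FPKM in the control and 4.71 in the mTBE library (-1.58), and RefSeq names 4 pseudogenes of it. Atp5g1 was at 32.6 and 13.2 (-1.24). Atp5a1 was at 72.4 and 30.3 (-1.23). These stand for the membrane part, the c ring and the catalytic head. The peripheral stalk subunits Atp5h (5.98 and 1.97 FPKM) and Atp5o (11.6 and 4.57) were lower as well, both named after their values were seen. Atp5b (183 and 115 FPKM, -0.67), Atp5e (41.2 and 30.7, -0.41) and Atp5g3 (30.8 and 20.8, -0.54) lay below 0 within 2-fold. The exception above 0 was Atp5j, also of the peripheral stalk and named after its values were seen, at 7.78 and 14.8 FPKM.

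In complex III, 7 of 9 genes lay below 0 (77.8%, all genes 53.4%). Uqcrq had the largest fall of any member, from 22.2 to 5.61 FPKM (-1.81), followed within the complex by Uqcrfs1, the Rieske iron-sulfur protein, at 13.6 and 4.62 (-1.38). Uqcrh was above 0, at 21.2 and 29.0 FPKM. In complex I no member was lower (all genes 9.99%) and 3 of 33 were higher (9.09%, all genes 5.57%), with a median of -0.34. Ndufa4 was at 36.6 and 74.6 FPKM (1.01, at the edge of the 2-fold line). The others, the accessory subunits Ndufa3 (0 and 2.99 FPKM) and Ndufa5 (0 and 5.58), were listed at 0 in control embryos, as was Cox7a1 (0 and 1.12) of complex IV. Without members at 0 in either library, a setting added after the data were seen, Ndufa4 was the only member higher. Complexes II and IV had medians near 0 (-0.06 and 0.03). In complex IV, Cox4i1 was lower (40.9 and 19.5 FPKM, -1.03), Cox6a1 was close to the line (55.4 and 28.4, -0.94) and Cox8a was above 0 (313 and 423, 0.43). The 2-cell markers also stood lower in the mTBE library, 451 against 207 FPKM in sum with 4 of 10 lower, and the oocyte markers at 4086 and 5243 FPKM; their part in the members' values was not tested.

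**Figure D3:**
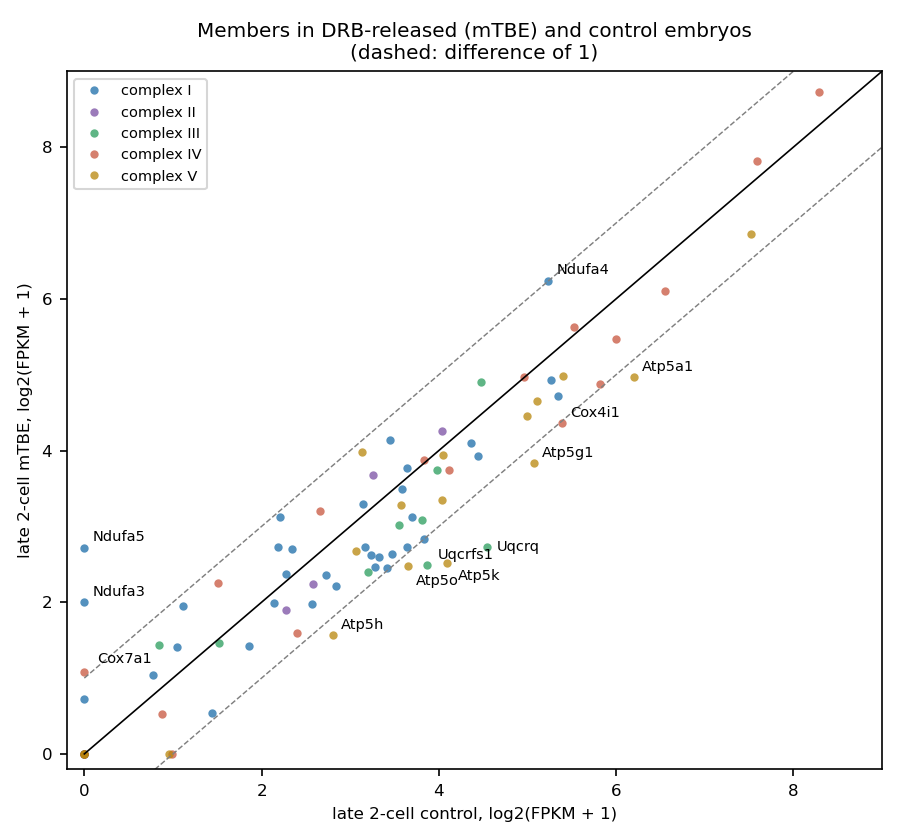
Level of each member in late 2-cell control (horizontal axis) and mTBE embryos (vertical axis), both as log2(FPKM + 1), with 1 point per gene coloured by complex. The solid line marks equal levels and the dashed lines a difference of 1; the 8 members lower and the 4 higher are named, and most complex V genes lie below the solid line.

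The ICM was compared with late 2-cell control embryos across separately normalized tables and different protocols. Of 82 measured members 78 were higher in the ICM (all genes 24.7%) and 3 lower (all genes 47.3%), with a median of 4.53 for members, -0.85 for all genes and 1.83 for genes at the members' middle levels (42.3 to 184 FPKM). Among genes at those levels 63.9% were higher and 12.8% lower. The level is the mean over both ICM libraries and the control library, so this choice itself favours genes that are high in the ICM. The share is therefore not read as a trait of genes at like levels. Both ICM libraries lay above all 5 total RNA libraries for 75 of 83 members (90.4%), against 24.7% of all genes, and below all of them for Cox6a2 and Cox6b2 (all genes 34%). Every complex had a median above those of all genes and of genes at like levels. Medians were 4.66 in complex I (36 of 36 higher), 4.29 in complex II (4 of 4), 4.79 in complex III (9 of 9), 4.17 in complex IV (13 of 16) and 4.43 in complex V (16 of 17). The member that was not called, Atp5sl, is not a subunit, is named after its values were seen and was at 10.9 FPKM in control embryos and 22.1 ± 0.0701 FPKM (SD, n = 2) in the ICM.

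The highest ICM levels belonged to complex IV. Cox8a had a mean of 1944 ± 433 FPKM (SD, n = 2) in the ICM against 313 FPKM in control embryos. Cox6b1 had 1772 ± 198 FPKM (SD, n = 2) against 62.9. Cox4i1 had 1610.1 ± 112 FPKM (SD, n = 2) against 40.9. The largest differences belonged to genes listed at 0 in control embryos: Ndufa3 (610.3 ± 37.5 FPKM (SD, n = 2)), Ndufa5 (423 ± 20.9 FPKM (SD, n = 2)) and Atp5g2 (291 ± 115 FPKM (SD, n = 2)). The largest difference of a gene detected in both was that of Uqcrb, a small subunit of complex III named after its values were seen, at 436 ± 145 FPKM (SD, n = 2) against 1.87 FPKM (7.21). Of genes at higher levels, Uqcr10 had 1344 ± 379.8 FPKM (SD, n = 2) against 14.8 FPKM (a difference of 6.39) and Atp5k 1572 ± 557 FPKM (SD, n = 2) against 16.1 (6.48). Sdha had the smallest difference in complex II, 1.79, at 56.3 ± 12.7 FPKM (SD, n = 2) against 15.4 FPKM. The 3 lower members were all tissue isoforms of complex IV, Cox6b2 (-4.98), Cox6a2 (-1.80) and Cox8c (-1.41). Trophectoderm markers moved with these values, with 10 of 10 at 1 FPKM or more and a sum of 2012 FPKM or more in the ICM libraries against 80.4 in control embryos.

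The ICM replicates gave the only measure of spread. Of 82 members 1 was higher in the second replicate (all genes 2.31%) and 2 were lower (all genes 2.79%), with a median of -0.0029 for members and -0.20 for all genes. Centring on genes of 5 FPKM or more gave 1 and 2 again for the members, and 3.09% and 1.87% for all genes. The second replicate was within 1.5-fold of the first for 70 of 82 members (85.4%), against 86.2% of all genes at such levels. Cox6a2 was higher, at 0.128 and 1.89 FPKM. Atp5l was lower, at 327 and 117, and Cox7b2 was at 4.98 FPKM in the first replicate and listed at 0 in the second. Apart from Cox6a2, Atp5k and Atp5e had the largest differences upwards (0.74 and 0.67), and Atp5g2 the next downwards after those called (-0.83). The replicates say nothing of the spread between total RNA libraries.

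**Figure D4:**
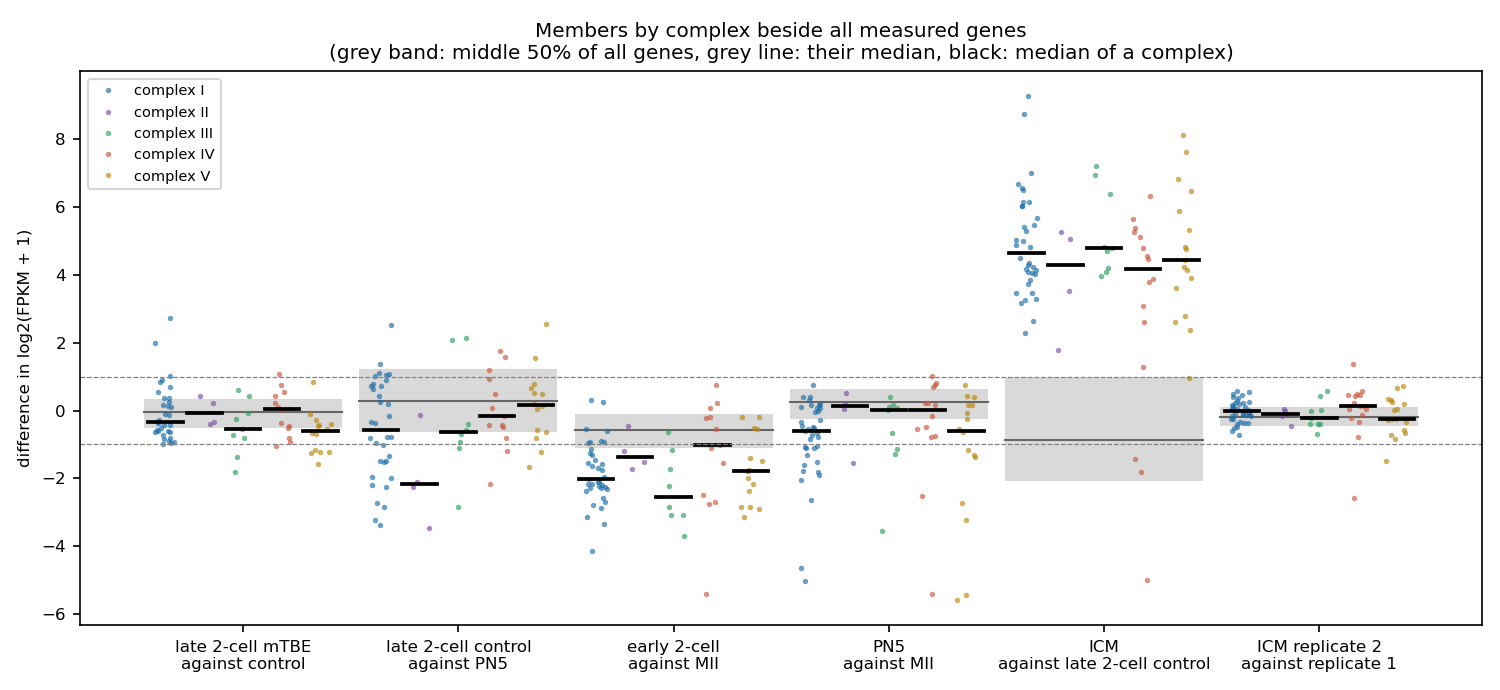
Difference in log2(FPKM + 1) (vertical axis) for each member in the 6 comparisons (horizontal axis), with 1 point per gene coloured by complex and a black bar at the median of each complex. The grey band holds the middle 50% of all measured genes and the grey line their median; dashed lines mark a difference of 1. Most members lie above the band in the ICM against control embryos, and most lie below it in early 2-cell embryos against MII.

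Complex IV is known for subunits with several isoforms, and here the isoforms diverged. Cox6b2 was at 31.6 FPKM in MII, 55.9 in PN5, 33.4 in early 2-cell, 192 in late 2-cell control and 225 in late 2-cell mTBE, and at 5.85 and 4.44 in the ICM libraries. Of the summed FPKM of Cox6b1 and Cox6b2, Cox6b2 took 40.7% in MII, 63.3% in PN5, 45.8% in early 2-cell, 75.4% in control and 83.8% in mTBE embryos. In the ICM it took 0.295% ± 0.0889 (SD, n = 2). Cox6b2 was thus the more abundant isoform in PN5 and in both late 2-cell libraries, all from the 3-library table, and the less abundant in the ICM libraries, where Cox6b1 reached 1772 ± 198 FPKM (SD, n = 2). Within the 3-library table alone the share went from 63.3% to 75.4% and 83.8%.

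Cox6a2, known from heart and skeletal muscle, was at 13.5 FPKM in MII, 7.45 in PN5, 11.8 in early 2-cell, 5.30 in late 2-cell control and 8.24 in late 2-cell mTBE, and at 0.128 and 1.89 in the ICM libraries. It took between 8.74% (control) and 22.5% (mTBE) of the summed FPKM of both Cox6a genes in total RNA, and 0.0676% ± 0.0798 (SD, n = 2) in the ICM. In control and mTBE embryos Cox6a1 was at 55.4 and 28.4 FPKM and Cox6a2 at 5.30 and 8.24, neither past the 2-fold line. Cox8c, known from testis, was at 0.362, 1.30, 0, 4.28, 2.03, 1.07 and 0.900 FPKM in the order MII, PN5, early 2-cell, control, mTBE and both ICM libraries, and never exceeded 1.35% of the Cox8 sum. Cox8b was listed at 0 throughout. Cox7a1, known from heart and muscle, showed the reverse of Cox6b2: it took 9.71% ± 0.138 (SD, n = 2) of the Cox7a sum in the ICM, with Cox7a2 at 463 ± 105 FPKM (SD, n = 2), and at most 3.57% in total RNA. Cox7a2 itself was at 18.1 FPKM in MII, 21.3 in PN5, 5.56 in early 2-cell, 30.0 in late 2-cell control and 30.3 in late 2-cell mTBE. Cox7b was at 20.9 FPKM in MII, 18.8 in PN5, 2.38 in early 2-cell, 13.2 in late 2-cell control and 13.7 in late 2-cell mTBE, and at 306 and 318 in the ICM libraries, and Cox7b2 was listed at 0 in all total RNA libraries. Cox4i1 took 97.8% or more of the Cox4i sum in every library, at 93.4 FPKM in MII, 55.3 in PN5, 13.1 in early 2-cell, 40.9 in late 2-cell control and 19.5 in late 2-cell mTBE, and at 1531 and 1689 in the ICM libraries.

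**Figure D5:**
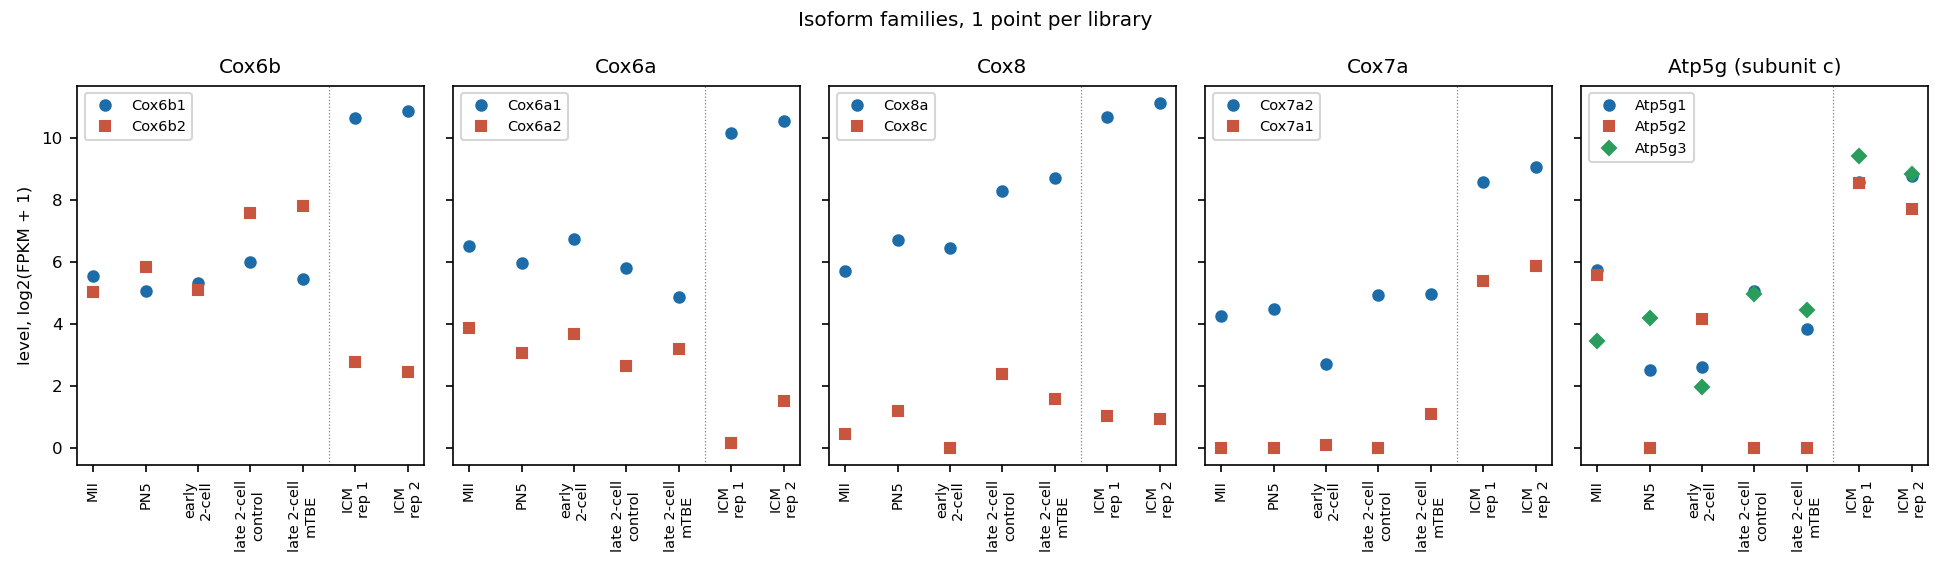
Level as log2(FPKM + 1) (vertical axis) of the isoforms of 4 complex IV subunits and of subunit c of complex V in the 7 RNA libraries (horizontal axis), 1 point per library. Cox6b2 lies above Cox6b1 in PN5 and in both late 2-cell libraries and far below it in the ICM libraries; Cox7a1 is near 0 in total RNA and higher in the ICM libraries.

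The 3 genes for subunit c of complex V, whose mature proteins are known to be identical, also changed places. In MII, Atp5g1 took 48.0% of their sum, Atp5g2 42.9% and Atp5g3 9.16%. In PN5, Atp5g3 took 78.7%, at 17.4 FPKM, with Atp5g1 at 4.71 and Atp5g2 listed at 0. In control embryos Atp5g1 (32.6 FPKM, 51.4%) and Atp5g3 (30.8 FPKM, 48.6%) were about equal, and in mTBE embryos Atp5g3 took 61.2%. Early 2-cell embryos had most in Atp5g2 (67.9%). In the ICM the shares were 33.1% ± 9.07 for Atp5g1, 22.4% ± 4.89 for Atp5g2 and 44.5% ± 4.18 for Atp5g3 (SD, n = 2). The shares in the 3-library table rest on Atp5g2 being near 0 there, as described above. Ndufa4l2 was at 1.46, 1.84 and 2.04 FPKM in MII, PN5 and early 2-cell embryos and listed at 0 in the other 4 libraries.

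Assembly factors, which as a class build the complexes without being part of them, were read beside the members. The complex V list covers assembly and regulation, so the genes counted as assembly factors here also include Atpif1 and Usmg5. Of 49 assembly factors found in the tables, 20 of 43 measured stood lower in early 2-cell than in MII, against 28.8% of all genes, with a median of -0.96 (members -1.76, all genes -0.58). In the ICM against control embryos 34 of 49 were higher, against 24.7% of all genes, with a median of 2.12 (members 4.53, all genes -0.85). In mTBE against control embryos 5 of 45 were higher (all genes 5.57%) and 4 lower (all genes 9.99%), with a median of 0.10 (members -0.38, all genes -0.05). Cox14, which acts in the synthesis of a complex IV core subunit, was at 20.6 FPKM in control embryos and 243 ± 56.3 FPKM (SD, n = 2) in the ICM. Cox10, which makes the heme of complex IV, went the other way, at 67.0 FPKM and 21.7 ± 0.0670 FPKM (SD, n = 2). Ndufaf4, a complex I assembly factor, was likewise lower, at 25.5 FPKM and 6.76 ± 0.558 FPKM (SD, n = 2). Uqcc1 of complex III was at 9.98 FPKM and 29.0 ± 2.08 FPKM (SD, n = 2), and Uqcc2 at 10.7 and 117 ± 6.10 FPKM (SD, n = 2). Atpif1, the inhibitor of ATP synthase hydrolysis, was at 13.7 FPKM and 570.5 ± 77.9 FPKM (SD, n = 2).

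Of the electron carriers and a subunit outside the naming rule, 5 of 5 measured were lower in early 2-cell than in MII (all genes 28.8%) and 6 of 6 were higher in the ICM than in control embryos (all genes 24.7%). In control embryos against PN5, 2 of 5 were higher and 2 lower (all genes 30.5% and 17%). In mTBE against control embryos 1 of 6 was higher and 1 lower (all genes 5.57% and 9.99%). In PN5 against MII 0 of 5 were higher and 2 lower (all genes 8.77% and 9.23%). Etfa, a subunit of the electron transfer flavoprotein, was at 25.7 FPKM in MII and 10.2 in early 2-cell embryos, and its partner Etfb was at 11.7 in control embryos and 506 ± 36.2 FPKM (SD, n = 2) in the ICM. Of the regulators of mitochondrial genes, 7 of 16 were higher and 4 lower in control embryos than in PN5 (all genes 30.5% and 17%), with a median of 0.79 (all genes 0.28). In the ICM against control embryos 4 of 16 were higher and 6 lower (all genes 24.7% and 47.3%), with a median of -0.72, close to the -0.85 of all genes. Nrf1 was at 28.7 FPKM in MII, 91.2 in PN5, 11.8 in early 2-cell, 34.7 in late 2-cell control and 38.4 in late 2-cell mTBE, and at 14.5 and 11.1 in the ICM libraries. Gabpb1, a subunit of GABP, was at 26.7 FPKM in MII, 39.8 in PN5, 14.8 in early 2-cell, 37.1 in late 2-cell control and 31.4 in late 2-cell mTBE, and at 28.3 and 16.0 in the ICM libraries. Gabpa, the DNA-binding subunit of GABP, named after its values were seen, was below 1 FPKM in MII, PN5 and early 2-cell embryos and at 30.4 FPKM in control, 15.5 in mTBE and 26.1 and 18.8 in the ICM libraries. Yy1, also named after its values were seen, was at 2.87 FPKM in MII, 4.44 in PN5, 5.82 in early 2-cell, 60.3 in late 2-cell control and 34.3 in late 2-cell mTBE, and at 18.3 and 11.1 in the ICM libraries. Both were higher in late 2-cell embryos than in the earlier stages, and had the largest rises of the list from PN5 to control embryos (4.52 and 3.49). The 4 genes lower there include Nrf1 (-1.37) and Tfb1m, among the 3 highest of the list by mean level. Tfb1m was at 40.1 FPKM in PN5 and 4.14 in control embryos (-3.00). No relation between these levels and the members was tested.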

How the data were processed

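The 7 RNA libraries analysed here are 5 of total RNA (1 each of MII, PN5, early 2-cell, late 2-cell control and late 2-cell mTBE) and 2 of ICM polyadenylated RNA; the other 109 of 116 samples were not used. Values were deposited as FPKM per gene symbol in 4 tables. Per the submitters' processing notes, TopHat2 2.1.1, Cufflinks 2.1.1, CASAVA 1.8 and build mm9 were used, in roles not stated. Handling of multi-mapped reads and strand is not given in the sources used here, so members with pseudogene copies (12 have a RefSeq-named pseudogene) are uncertain. The MII value column bears a name that a chromatin sample also bears and was taken by its table's sample.

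Rows that share a symbol (497 in the 3-library table, 495 in each single-library table, 0 in the ICM table) were summed. Differences are in log2(FPKM + 1), with a pseudocount of 1 FPKM. A gene counted as measured when either library compared had 1 FPKM or more, and was called at a difference of 1 or more. ICM values are means of 2 log2 values; levels and shares are means ± SD. With 1 library a group no test was run; counts and medians stand beside those of all genes. Computation used Python 3.11.15, numpy 2.4.6, pandas 2.3.3 and matplotlib 3.10.9 and was tested on simulated data. The alternatives changed the pseudocount, the filter, the scaling, the members included and the ICM replicate used.

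Named members are the 4 highest per complex by mean level, the 3 largest differences each way per comparison, those set apart, the isoform families and complex II; each list gives up to 3 genes. Other genes are marked as named after their values were seen, except the genes of the printed YY1 matches, named for the match. The members and lists were chosen with earlier results of these data known. Protein lengths planned for the members set apart were not used here. Depth is unknown for total RNA: 16 of 580 genes below 0.3 FPKM shared a ratio between the late 2-cell libraries. In the ICM libraries 199 of 1972 did, so the first was about 2.11 times as deep as the second. The count of value columns without a sample was 0. Members not named are given through counts and medians.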

Additional observations from a re-analysis of the deposited data

How the results depend on the processing

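No paired analysis was possible because the total RNA groups hold 1 library each and the ICM replicates have no counterpart with the same number. Over the 6 comparisons, 98 counts under an alternative stayed within 1.5 times the value reported and 14 did not. For mTBE against control, 13 members were lower with a pseudocount of 0.1 FPKM and 14 with each library rescaled to a sum of 1000000, instead of 8; 7 were higher with a pseudocount of 0.1 FPKM, 2 with a filter of 5 FPKM and 1 without members at 0 in a library compared (added after the data were seen), instead of 4. For early 2-cell against MII, 1 member was higher with the median log2 ratio set to 0 and 1 with rescaled sums, instead of 0. For PN5 against MII, 2 were higher with a pseudocount of 0.1 FPKM and 0 with the median log2 ratio set to 0, instead of 1. Between the ICM replicates, 1 member was lower instead of 2 with a filter of 5 FPKM and without members set apart, with a pseudogene or at 0, and 0 were higher with that filter. The members' median between these replicates turned from -0.0029 to 0.0062 with the filter of 5 FPKM, without members set apart and without those at 0, to 0.14 with the median log2 ratio set to 0 and to 0.00058 without names that are not subunits. No other median changed sign. The median of control against PN5 was -0.16 without the filter instead of -0.40, and that of PN5 against MII -0.79 with the median log2 ratio set to 0 and -0.80 with rescaled sums instead of -0.50. With limits of 0.5 and 5 FPKM, 5 members were set apart instead of 9. The cause of these changes was not tested. ICM against control gave a median of 4.56 to 4.70 with either ICM replicate left out. Low values limit what can be read: 3 to 11 members were listed at 0 in a total RNA library, and depth is unknown there.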
